A study of Homo sapiens with 6 samples.

Results

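CD14, CAMP, THBD, SEMA3B, SERPINB1, DUSP10, CLMN, NINJ1 and KLF4 are genes known as targets of the vitamin D receptor outside calcium transport, and their RNA was measured here in SKOV3, an established human ovarian cancer cell line. The array carried 15 probes for these 9 genes, among 125601 probes in all and 39641 genes matched by a probe of their own. They were found by exact, same-strand matches of the probe sequences to GENCODE release 44 transcripts, because the deposited files pair no probe with a gene name. Single-color Agilent arrays were run on 3 samples labelled 1,25(OH)2D3, the hormonally active form of vitamin D, given at 100 nmol/L for 72 h, and on 3 samples labelled vehicle, given ethanol for the same time. All 6 came from 1 cell line grown in medium with heat-inactivated fetal bovine serum. The labels spell the line in more than one way, and nothing in them says whether the replicates of a group were separate cultures, so the spread between arrays may be technical.

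In the nucleus, the vitamin D receptor (VDR) pairs with a retinoid X receptor and binds response elements that are typically 2 hexamer half-sites in direct repeat with a 3-base spacer, called DR3. Besides the genes of calcium transport and of vitamin D breakdown, the receptor regulates genes of innate immunity, coagulation, adhesion, stress signalling and differentiation. Many of these targets were described in monocytes, keratinocytes and epithelial cancer cells, and how strongly each responds depends on the cell type.

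CYP24A1, the standard check of a vitamin D treatment, went against the labels, which bears on every direction given here. This gene encodes the enzyme that breaks down 1,25(OH)2D3 and is a strongly induced target of the receptor. Its probe A_23_P28815 in the 3′ UTR had log2 signals of 2.23, 13.84 and 3.30 for replicates 1, 2 and 3 of the label 1,25(OH)2D3, and of 14.18, 4.75 and 14.34 for the vehicle label, and values of the other genes are given in the same order of replicates. Thus 3 arrays, labelled 1,25(OH)2D3 replicate 2 and vehicle replicates 1 and 3, were high in CYP24A1, and 3 were low. A second probe in the coding sequence, A_33_P3369401, divided the arrays in the same way, with a gap of 6.40 log2 units between the lowest high array and the highest low one. Because of this, groups are called by their labels throughout, the tests compare the labels, and the division of the arrays by CYP24A1 is given as a description of single arrays with no mean, fold change or test.

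By the scanner's flag, 49.1% to 57.58% of an array's probes stood well above background, and no spot was saturated. Slide 1 held the arrays labelled 1,25(OH)2D3 replicates 1 and 2, and slide 2 held the other 4. All arrays labelled vehicle were thus on slide 2, so slide and label cannot be fully told apart. Of 8 markers of the SKOV3 line, 7 were matched to a probe and all 7, among them ERBB2, KRT7, KRT8 and PAX8, were well above background on all 6 arrays. Several genes used as markers of monocytes and macrophages were also above background on all 6 arrays, namely PTPRC, ITGAM, CSF1R and TYROBP. FCGR3A was above it on 4 arrays and CD163 on 2. The fibroblast markers COL1A1, COL3A1 and PDGFRB were above background on all 6 arrays, COL1A2 on 5, LUM on 1 and DCN on none. Each marker was read by the brightest of its probes. In RNA from a whole culture, fewer cells that express a gene and less of its RNA per cell cannot be told apart.

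The probes are 60-base oligonucleotides, and where each one lies decides which RNA it reads. The sequences shown are those of the coding probes and of the probe with the widest range, THBD, each 5′ to 3′ on the strand of the RNA and placed on hg38 by the match made here. For CLMN the capitals mark the bases in exon 12, since this probe crosses a splice junction and cannot pair over its full length with unspliced RNA. For CAMP the coding bases are printed, and for THBD the 30 bases at the centre of a probe in the 3′ UTR.
CAMP A_23_P253791, chr3:48225366-48225421, plus strand: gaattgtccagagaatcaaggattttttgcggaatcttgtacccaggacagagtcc
THBD A_23_P91390, chr20:23046185-23046214, minus strand: tctttggttcagctaagctaggaatgaaat
SERPINB1 A_23_P214330, chr6:2833630-2833689, minus strand: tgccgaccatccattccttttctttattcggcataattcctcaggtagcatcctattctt
DUSP10 A_24_P182494, chr1:221702431-221702490, minus strand: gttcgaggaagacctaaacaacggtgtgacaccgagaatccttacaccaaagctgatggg
CLMN A_23_P25706, chr14:95193913-95194588, minus strand: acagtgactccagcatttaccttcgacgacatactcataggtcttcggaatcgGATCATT
KLF4 A_23_P32233, chr9:107485768-107485827, minus strand: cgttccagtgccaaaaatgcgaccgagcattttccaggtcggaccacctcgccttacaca

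None of the 8 genes tested between the labels passed, and CAMP was not tested. Of the 9 genes 6, THBD by the widest gap, read higher on each of the 3 arrays high in CYP24A1 than on any low one. Among the 15 probes, 11 carried the scanner's flag for signal above background on all 6 arrays and were tested with limma, and 0 of the 11 passed the rule for a call (a change of over 2-fold together with a limma p below 0.05 before adjustment). Across the array 472 of 63377 tested probes passed it (0.745%), 308 higher and 164 lower on the arrays labelled 1,25(OH)2D3. After Benjamini-Hochberg adjustment 0 probes of the array passed (0.0%), with a lowest adjusted p of 0.702 from limma, while 4288 had an unadjusted p under 0.05 and an unmoderated unpaired test per probe called 0 after the same adjustment. Among the 11 member probes 1 difference was positive and 10 were negative, with a median of −0.25 log2 units against −0.0037 over all probes tested. The labelled groups overlapped for all 11, whereas they did not overlap for 12.2% of all probes tested.

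Divided by CYP24A1, 7 of the 11 tested probes were higher on each of the 3 high arrays than on any low one, 1 was lower on each, and 3 overlapped. Over all probes tested, 3.29% were higher on the 3 high arrays and 2.88% were lower, with no gap required. The member genes were chosen with earlier results of these data known, so their share beside that of all probes tests nothing. These 7 probes belonged to 6 genes: THBD, SEMA3B, SERPINB1, DUSP10, CLMN (both of its probes to the coding transcript) and NINJ1. CD14 was the gene that was lower, and KLF4 overlapped. Of the 5 tested markers of monocytes and macrophages 1, CSF1R, was higher on the 3 high arrays, by a gap of 0.13 log2 units, and of the 7 SKOV3 markers and 4 tested fibroblast markers none divided in this way. This holds for the brightest probe of each marker, and their other probes were not examined.

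**Figure D1:**
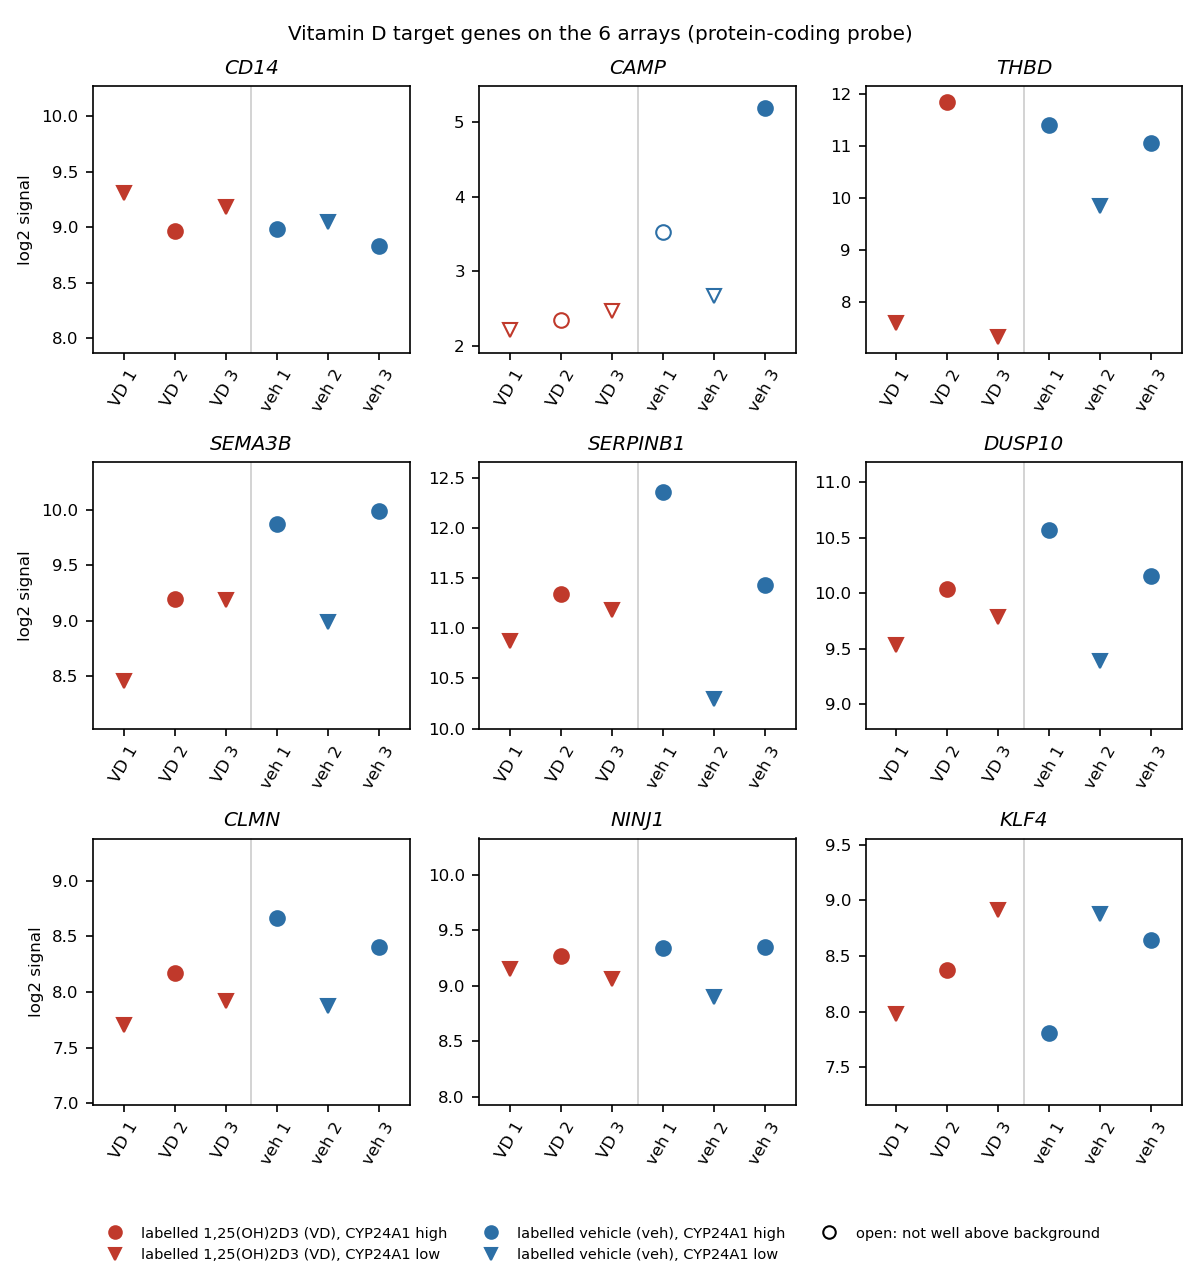
Each panel plots the log2 signal (series matrix) of the probe to the protein-coding transcript of 1 gene on the 6 arrays, with the labelled replicate on the x axis; red is labelled 1,25(OH)2D3 (VD), blue labelled vehicle (veh), circles are the arrays high in CYP24A1, triangles the low ones, and open symbols were not well above background. The y axes cover different levels. Circles lie above triangles for THBD, SEMA3B, SERPINB1, DUSP10, CLMN and NINJ1, by 1.23 log2 units for THBD and by 0.0044 for SEMA3B.

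Innate immunity was read by CD14 and CAMP. CD14 encodes the surface co-receptor that hands bacterial lipopolysaccharide to the Toll-like receptor complex, and it rises when monocytes respond to vitamin D. Its probe A_33_P3284508 lies in the 3′ UTR, in exon 2 of 2 (chr5:140631733-140631792, minus strand). It read 9.31, 8.97 and 9.18 on the arrays labelled 1,25(OH)2D3 and 8.98, 9.05 and 8.83 on those labelled vehicle. The labelled means were 9.15 ± 0.17 and 8.96 ± 0.11 (SD, n = 3), a difference of 0.20 log2 units (SE 0.161, limma unadjusted p = 0.255, adjusted p = 0.749) that did not pass the test. The 3 arrays high in CYP24A1 held the 3 lowest CD14 values, but the gap was 0.07 log2 units, and with background correction by normexp the sides overlapped.

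CAMP encodes cathelicidin, an antimicrobial peptide whose gene is a direct target of the receptor in human myeloid and epithelial cells. Probe A_23_P253791 covers the last 56 coding bases and 4 bases of the 3′ UTR in exon 4 of 4. CAMP was well above background on 1 array of 6, labelled vehicle replicate 3, where it read 5.18. The other arrays read 2.22, 2.34 and 2.47 (labelled 1,25(OH)2D3) and 3.52 and 2.67 (labelled vehicle replicates 1 and 2), and as these values were not well above background they have no order. It therefore was not tested, and no fold change is given. The array with the detected value is one of the 3 that were high in CYP24A1, and the other two high arrays did not detect CAMP.

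Coagulation and protease control were read by THBD and SERPINB1. THBD encodes thrombomodulin, a membrane receptor that binds thrombin and turns it toward activating protein C. Its probe A_23_P91390 lies in the 3′ UTR of the gene's single exon (chr20:23046170-23046229, minus strand). THBD read 7.59, 11.86 and 7.33 on the arrays labelled 1,25(OH)2D3, and 11.41, 9.84 and 11.07 on those labelled vehicle. The 3 arrays high in CYP24A1 were the 3 highest, the lowest of them 1.23 log2 units above the highest low array, and this gap ranked 12 among the 2083 probes that divided in that direction. Within slide 1 the high array exceeded the low one by 4.27 log2 units, and within slide 2 the gap was 1.23. The array labelled vehicle replicate 2, low in CYP24A1, lay between the others. By label the means were 8.92 ± 2.54 and 10.77 ± 0.83 (SD, n = 3), a difference of −1.85 (SE 1.13, limma unadjusted p = 0.143, adjusted p = 0.707).

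For THBD the label comparison depended on 1 array. Without the array labelled 1,25(OH)2D3 replicate 2 the difference was −3.32 log2 units (limma unadjusted p = 0.000221) and passed the unadjusted rule. With slide as a block over all 6 arrays it was −3.45 (limma unadjusted p = 0.072) and did not pass. As slide 1 held no array labelled vehicle, the difference from this block fit comes from slide 2. Slide 2 alone gave the same −3.45 (limma unadjusted p = 0.0051) and passed, but it sets 1 array labelled 1,25(OH)2D3 against 3 labelled vehicle, with the lone array assumed to vary like the others. Without replicate 1 or replicate 3 of that label it was −1.18 or −1.05 and did not pass. The direction, lower on the arrays labelled 1,25(OH)2D3, held in all of these.

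SERPINB1 encodes an inhibitor of neutrophil elastase and related serine proteases inside cells. Its coding probe A_23_P214330 in exon 7 of 7 read 10.87, 11.34 and 11.18 on the arrays labelled 1,25(OH)2D3 and 12.35, 10.30 and 11.42 on those labelled vehicle. The highest and the lowest of the 6 values were thus both on arrays labelled vehicle. The label difference was −0.23 (SE 0.464, limma unadjusted p = 0.638, adjusted p = 0.901), and it was 0.27 without the array labelled vehicle replicate 1. Arranged by CYP24A1, the high arrays were above the low ones by a gap of 0.153. A second probe, OEV5_28300, spans exons 1 and 2 of a SERPINB1 transcript with no defined coding sequence and gave another picture. It read 17.82 to 17.92 on the 6 arrays, at the 99.97th percentile of all probes' means, with a range of 0.096 log2 units, and its sides overlapped. This narrow range is that of the deposited, quantile-normalized values, and its cause was not tested. The label difference of the probe was −0.02 in these values, −0.17 in the scaled scanner signals and 0.11 with normexp, none of them called. No other gene shared a run of 25 bases with OEV5_28300.

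**Figure D2:**
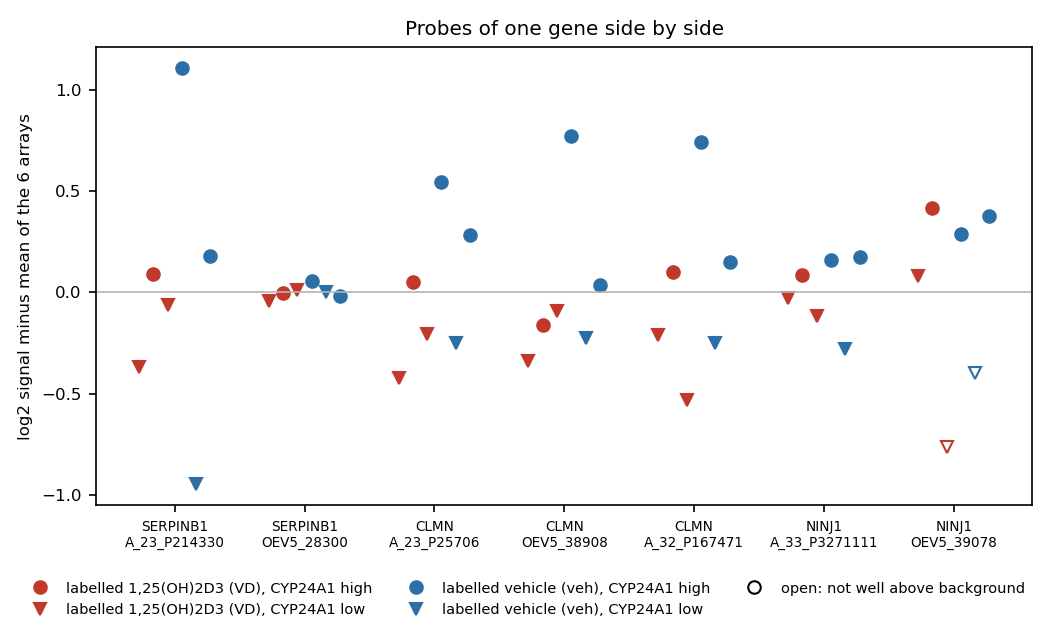
Log2 signal minus the probe's mean over the 6 arrays (y axis) for the probes of SERPINB1, CLMN and NINJ1 that were well above background on at least 1 array (x axis); colours and symbols are as in the plot of the 9 genes, with arrays in the order labelled 1,25(OH)2D3 replicates 1 to 3, then vehicle. The coding probe of SERPINB1 spreads from 10.30 to 12.35 before centring, while OEV5_28300 stays within 0.096 log2 units in these quantile-normalized values.

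SEMA3B and NINJ1 are genes of cell guidance and adhesion. SEMA3B encodes a secreted semaphorin that guides axons and restrains growth of several carcinomas. Probe A_23_P132718 lies in the 3′ UTR in exon 17 of 17 (chr3:50277034-50277093, plus strand) and read 8.46, 9.20 and 9.19 on the arrays labelled 1,25(OH)2D3 and 9.87, 8.99 and 9.99 on those labelled vehicle. The labelled means were 8.95 ± 0.42 and 9.62 ± 0.55 (SD, n = 3), a difference of −0.67 (SE 0.321, limma unadjusted p = 0.0731, adjusted p = 0.702). The high arrays were above the low ones by 0.0044 log2 units, rank 2010 of 2083, so the arrays labelled 1,25(OH)2D3 replicates 2 and 3 were level although CYP24A1 was high on one and low on the other. With normexp the sides overlapped.

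NINJ1 encodes ninjurin-1, a membrane protein of cell adhesion that also ruptures the plasma membrane in dying cells. Probe A_33_P3271111 in the 3′ UTR (chr9:93121498-93121557, minus strand) read 9.15, 9.26 and 9.06 on the arrays labelled 1,25(OH)2D3 and 9.34, 8.90 and 9.35 on those labelled vehicle. The label difference was −0.04 (SE 0.179, limma adjusted p = 0.960). The gap by CYP24A1 was 0.111, with the high arrays above. Probe OEV5_39078, in a NINJ1 transcript with no defined coding sequence, was well above background on 4 arrays and was not tested, and its values of 5.09, 5.18 and 5.22 on the high arrays and 4.04, 4.40 and 4.88 on the low ones also did not overlap.

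Stress signalling, cytoskeleton and differentiation were read by DUSP10, CLMN and KLF4. DUSP10 encodes a phosphatase that inactivates the stress kinases p38 and JNK. Its coding probe A_24_P182494 in exon 4 of 4 read 9.53, 10.04 and 9.79 on the arrays labelled 1,25(OH)2D3 and 10.57, 9.38 and 10.15 on those labelled vehicle. The labelled means of 9.79 ± 0.26 and 10.04 ± 0.60 (SD, n = 3) differed by −0.25 (SE 0.307, limma unadjusted p = 0.439, adjusted p = 0.827), less than the spread between arrays, and by 0.02 without the array labelled vehicle replicate 1. The 3 arrays high in CYP24A1 held the 3 highest values, with a gap of 0.254 in the deposited values, 0.353 in the scanner signals and 0.232 with normexp.

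CLMN encodes calmin, a membrane protein with an actin-binding calponin homology region. The junction probe A_23_P25706 (exons 11 and 12 of 13) read 7.70, 8.17 and 7.92 on the arrays labelled 1,25(OH)2D3 and 8.66, 7.87 and 8.40 on those labelled vehicle. The 3′ UTR probe A_32_P167471 read 5.23, 5.54 and 4.91, and then 6.18, 5.19 and 5.59, in the same order. Both probes divided with CYP24A1, the high arrays above, with gaps of 0.255 and 0.310, and their label differences were −0.38 (SE 0.239, limma adjusted p = 0.707) and −0.43 (SE 0.283, limma adjusted p = 0.715). Probe OEV5_38908, in a transcript that retains an intron, had a label difference of −0.39 (SE 0.262, limma adjusted p = 0.717) and overlapped between the sides. The remaining CLMN probes, OEV5_36376 and OEV5_38700, also in transcripts without a coding sequence, were not well above background on any array.

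KLF4 encodes a zinc finger transcription factor of epithelial differentiation. Its coding probe A_23_P32233 in exon 5 of 5 read 7.98, 8.37 and 8.91 on the arrays labelled 1,25(OH)2D3 and 7.80, 8.88 and 8.65 on those labelled vehicle. The label difference was −0.02 (SE 0.337, limma adjusted p = 0.989), and it was 0.47 within slide 2, where 1 array labelled 1,25(OH)2D3 stands against 3. Its highest values, 8.91 and 8.88, were on arrays low in CYP24A1 and its lowest, 7.80, on a high one, with the others mixed, so KLF4 overlapped in both arrangements.

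**Figure D3:**
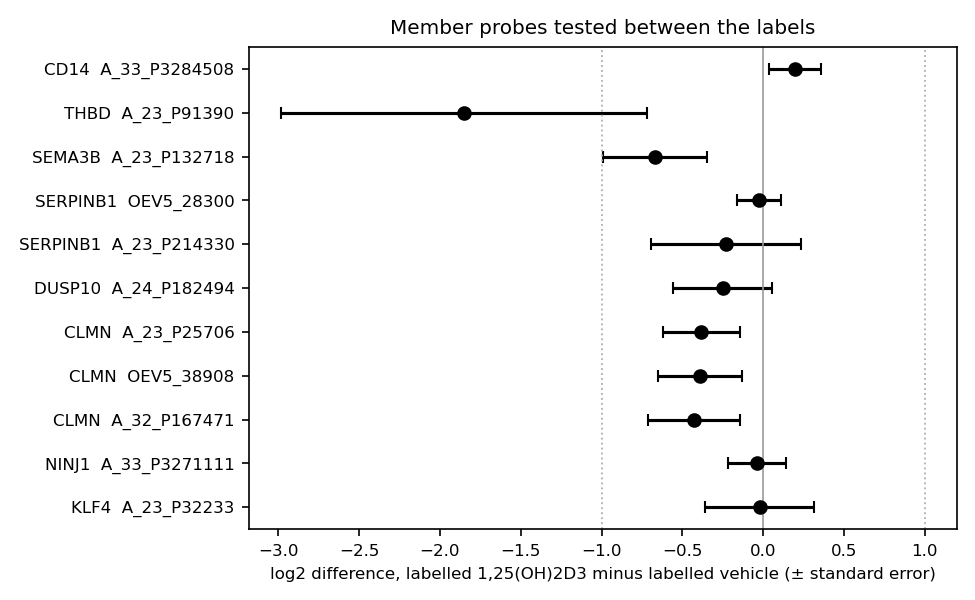
Points are the log2 differences, labelled 1,25(OH)2D3 minus labelled vehicle, of the 11 member probes tested with limma over 3 arrays per label (x axis), bars are ± 1 standard error, and dotted lines mark a fold change of 2. CD14 is the 1 positive difference, at 0.20, and THBD at −1.85 has both the largest difference and the widest error.

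Taking 1 probe per gene to a protein-coding transcript, the brightest where there were several, 6 of the 9 genes were higher on the CYP24A1-high arrays in the deposited values and 5 with normexp. The choice of this probe was made after seeing the data, since the brightest SERPINB1 probe of any kind was OEV5_28300, and with the brightest probe of any kind the counts were 5 and 4. SEMA3B was the gene lost with normexp in both. Apart from THBD, the gaps of the members' tested probes were at most 0.310 log2 units. The coding probe of CYP24A1 had a gap of 6.40, but another probe of that gene placed the division, so its gap is no independent yardstick.

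None of the 4 receptor genes was called between the labels. VDR read 7.43, 7.24 and 7.24 on the arrays labelled 1,25(OH)2D3 and 7.03, 7.26 and 6.91 on those labelled vehicle, a difference of 0.23 (SE 0.163, limma adjusted p = 0.722). It was lower on the CYP24A1-high arrays by a gap of 0.0022. RXRA, RXRB and RXRG, the partners of VDR, had label differences of 0.22, 0.01 and −0.87 and overlapped between the sides. The RXRG difference (SE 0.477, limma adjusted p = 0.702) came from a probe well above background on 4 arrays. Its lowest values, 3.48 and 3.93 on the arrays labelled 1,25(OH)2D3 replicates 1 and 2, were both on slide 1. Each receptor gene was read by the brightest of its probes.

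Other known targets of the receptor were counted as a list of 30 genes, of which 29 were matched to a probe, 21 were tested and 5 were not well above background on any array. Each gene of the list was read by the brightest of its probes alone, and other probes of the same gene may differ. By label 0 were called higher and 1 lower, CYP3A4, against 0.745% of all probes in either direction, and the median difference of the list was −0.02. CYP3A4, a drug-metabolising enzyme that also degrades vitamin D, read 6.25, 6.40 and 8.47 on the arrays labelled 1,25(OH)2D3 and 8.32, 8.48 and 8.46 on those labelled vehicle, a difference of −1.38 (SE 0.541, limma unadjusted p = 0.0354, adjusted p = 0.702). Both low values were on slide 1. On slide 2 the 1 array labelled 1,25(OH)2D3 read 8.47 and the 3 labelled vehicle 8.32 to 8.48. With slide as a block the difference was 0.05 (limma unadjusted p = 0.793) and was not called. As slide 1 held no array labelled vehicle, that difference comes from slide 2 alone.

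By CYP24A1, and leaving that gene out, 6 of the 20 tested genes of the list were above on the 3 high arrays, 1 was below and 13 overlapped. Over all probes tested, 3.29% were above and 2.88% below in the deposited values. The list was chosen with earlier results of these data known, so its share beside that of all probes is a description and tests nothing. For the list the counts were the same in the scanner signals and with normexp. The 6 genes above were IGFBP3, SLC37A2, IGFBP1, SPP1, G0S2 and NRIP1. IGFBP3, a binding protein that holds insulin-like growth factors, read 12.93, 13.85 and 13.10 on the arrays labelled 1,25(OH)2D3 and 14.04, 13.08 and 14.64 on those labelled vehicle, a gap of 0.74. SLC37A2, a sugar-phosphate transporter, read 5.49, 7.82 and 5.39 and then 7.89, 7.0 and 7.59, a gap of 0.59. SPP1, which encodes osteopontin, had a gap of 0.41, IGFBP1 one of 0.46, G0S2 one of 0.22 and NRIP1 one of 0.015. The calcium channel gene TRPV6, which was not tested, was well above background on the 3 high arrays alone, at 5.45, 7.01 and 6.11. FOXO1 was below, with a gap of 0.06. THBD thus had a wider gap than each of these 6 tested genes. TRPV6 is not set against THBD, because its values on the low arrays were not well above background and give no measured gap.

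**Figure D4:**
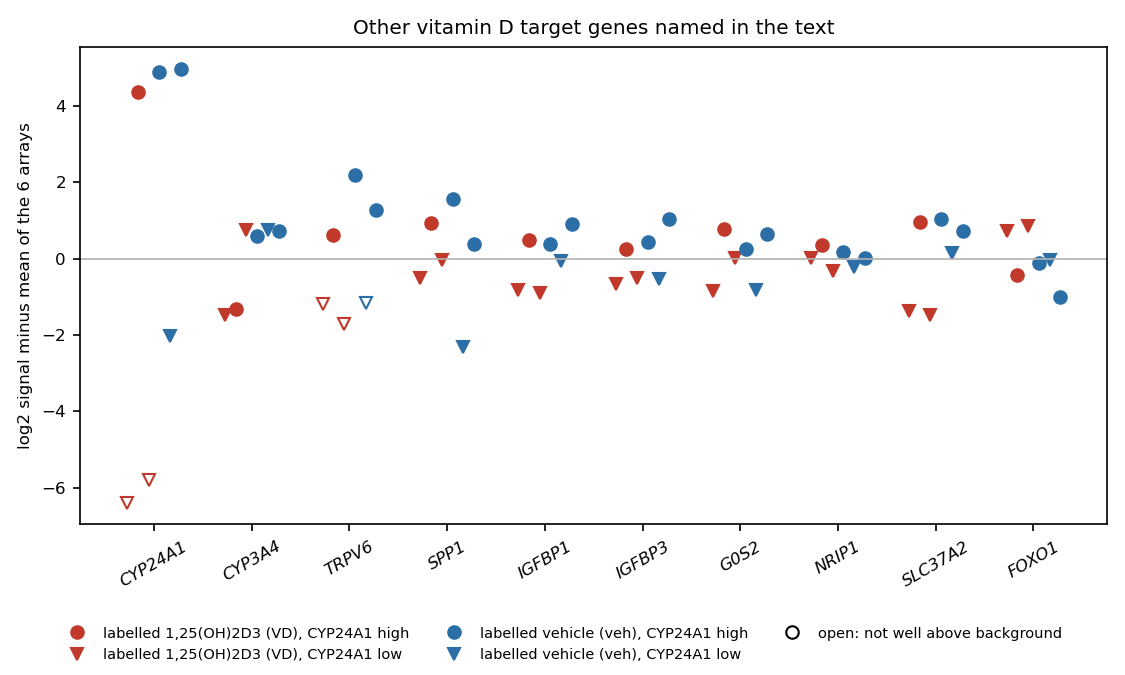
Log2 signal minus the mean of the 6 arrays (y axis) for CYP24A1 and the other vitamin D target genes named here (x axis), with colours and symbols as in the plot of the 9 genes. Circles, the arrays high in CYP24A1, lie above triangles for CYP24A1, TRPV6, SPP1, IGFBP1, IGFBP3, G0S2, NRIP1 and SLC37A2 and below them for FOXO1, while the low CYP3A4 values are both on slide 1.

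Genes whose values ran most like those of a member were sought among 42303 gene-named probes well above background on all 6 arrays, by the root mean square difference of centred log2 values over the 6 arrays. For THBD these were UCA1 (0.44), ID3 (0.52), GEM (0.59), CLEC4OP (0.67) and SLC37A2 (0.77), in log2 units, while THBD itself ranged over 4.53. SLC37A2 is also on the list of vitamin D targets. For SEMA3B, with a range of 1.53, LHX1-DT came nearest (0.15), for DUSP10, with a range of 1.19, TMSB15B-AS1 (0.05), TARS3 and FUCA1, and for KLF4, with a range of 1.11, H4C5 (0.09) and EXOSC3. With 6 arrays and this many probes, small distances from genes of small range are a description of these arrays. CD14, CLMN, NINJ1 and the brightest SERPINB1 probe spanned at most 1 log2 unit and were not ranked, and CAMP was not because it was detected on 1 array. The search took only the brightest probe of each member, so the SERPINB1 coding probe A_23_P214330, with a range of 2.06, was not ranked either.

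The 250 bases before the start sites of 7 of the 9 genes (RefSeq, GRCh38.p14; 12 windows, as SEMA3B and DUSP10 have several starts) were searched on both strands for the half-sites AGGTCA or AGTTCA, and likewise for GGGTCA or GGTTCA. Of the 12 windows 4 held one, from 4 genes, and of 35116 promoter windows of that length 33.83% did, so the members' share is that of promoters at large. Neither strand of any of the 12 windows held a DR3 made of these half-sites, a pattern found in 0.07% of all windows. Each half-site is shown with its flanks, in the direction of transcription and with the hexamer in capitals, which for SEMA3B, SERPINB1 and DUSP10 is the reverse complement of the searched letters. The half-sites start at −69 (CD14), −189 (SEMA3B), −193 (SERPINB1), −208 and −46 (DUSP10) from the start site.
CD14, chr5:140633227-140633256, minus strand: ggaggtgatcagGGTTCAcagaggagggaa
SEMA3B, chr3:50268960-50268989, plus strand: gccagtgcagggTGACCCtgagggtgtgcc
SERPINB1, chr6:2842039-2842068, minus strand: ggggaaaggcttTGAACTgagaaagaagcc
DUSP10, chr1:221737091-221737120, minus strand: tgtggataggggTGACCCatcagtcattga
DUSP10, chr1:221736929-221736958, minus strand: aggacacactgcTGACCTcaccactgggcg
THBD and CLMN were not analysed here in this way. CAMP, NINJ1 and KLF4 held none of these letters in the windows searched, which says nothing about receptor binding elsewhere near these genes.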

How the data were processed

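Expression was measured on 6 single-color Agilent arrays, grouped by their labels (3 per label). Per the labels RNA was extracted with the mirVana kit, whereas the methods name TRIzol. The authors scanned the arrays with Agilent Feature Extraction 10.7.1.1, which subtracted background within each array, and deposited the linear intensity of each spot with detection flags. The authors also deposited 1 log2 value per probe and array. Its sorted columns differ by at most 0.00091, so these log2 values are quantile-normalized between arrays, and they are the values given here. Quantile normalization fixes the set of values on each array, so a change shared by most probes would not be seen. No column of another sample was used.

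The files pair 0 of 125601 probes with a gene name, so probe sequences were matched exactly to GENCODE 44 transcripts on hg38. The array header names hg19, and no coordinates were converted. 90604 probes matched a transcript and 86414 matched 1 gene symbol. DEFB4A, WT1, LYZ and CD68 were not matched to a probe of a single gene.

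limma 3.58.1 in R 4.3.3 compared the labels by lmFit and eBayes, without a covariate, on 63377 probes, those with the well-above-background flag on each of the 3 arrays of either label. Called means a change of over 2-fold together with a p below 0.05 before adjustment, and Benjamini-Hochberg adjustment ran over all probes tested. The fit was tested on simulated data. The division by CYP24A1 probe A_23_P28815 was placed at that probe's largest gap, and a gene divides where the 3 arrays of either side do not overlap. The number of arrays limits the precision, and a p that misses a threshold does not show that values are equal. The members, the lists and the rule for named genes (all members; receptors; listed targets that were called or divided; the 5 genes most like a member) were chosen with earlier results of these data known.

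Alternatives were the scanner intensity scaled to the 75th percentile, normexp (offset 50) with quantile normalization, no filter, a filter on all 6 arrays, slide or replicate number as a block, slide 2 alone, an unpaired test per probe with equal variances and no moderation (the methods name limma for the arrays), and each array left out. Arrays with the same replicate number did not deviate together in every pair (correlations 0.126, 0.109 and −0.018), so the main fit has no block. THBD and CLMN had no promoter sequence in the RefSeq table used here.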

Additional observations from a re-analysis of the deposited data

How the results depend on the processing

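The comparison between labels rests on 3 arrays against 3 whose CYP24A1 values go against the labels, and for CAMP the limit is signal over background. The number of probes called before adjustment was 472 (308 higher, 164 lower), 33 with normexp (14 higher, 19 lower), 1612 with no filter (872 and 740), 157 with a filter on all 6 arrays (94 and 63), 808 with slide as a block (402 and 406), 1507 within slide 2 (1106 and 401), 139 with the unpaired test without moderation (93 and 46) and 513 in the scaled scanner signals (371 and 142). Leaving out 1 array gave 329 (without the array labelled 1,25(OH)2D3 replicate 1) to 1526 (without its replicate 3), with 879 without its replicate 2 and 1223, 552 and 719 without vehicle replicates 1, 2 and 3. After Benjamini-Hochberg adjustment the count from limma was 0 in each setting except without the array labelled vehicle replicate 1, where it was 4, so the range was 0 to 4. The cause of these shifts was not tested.

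No member gene was called in the main comparison, and 1, THBD, was called within slide 2, where 1 array labelled 1,25(OH)2D3 stands against 3, and without the array labelled 1,25(OH)2D3 replicate 2, so leaving out arrays gave 0 to 1. With slide as a block over all 6 arrays 0 were called, THBD having the same difference of −3.45 at an unadjusted limma p of 0.072. With the protein-coding probe per gene, chosen after seeing the data, the count was 0. With the replicate number as a block 582 probes and 0 member genes were called, and since the numbers do not pair the arrays, this was not used further.

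Over the 11 member probes, 84 values under settings that kept all arrays or slide 2 alone had the direction and call of the main comparison, 1 (THBD within slide 2) gained the call and 3 were reversed, namely KLF4 with slide as a block (0.47) and within slide 2 (0.47) and SERPINB1 OEV5_28300 with normexp (0.11). The KLF4 reversals are the same estimate, since slide 1 held no array labelled vehicle and the block fit takes its difference from slide 2. Leaving out 1 array reversed 9 values and kept direction and call in 56, the reversals being in genes with small differences. With 1 array left out KLF4 ranged from −0.34 to 0.20, SERPINB1 A_23_P214330 from −0.76 to 0.27, DUSP10 from −0.58 to 0.017, NINJ1 from −0.19 to 0.038 and THBD from −3.32 to −1.05. The number of genes whose brightest probe divided with CYP24A1 in either direction was 6, also 6 in the scanner signals, 4 with normexp, and 7 with the protein-coding probe.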

Other observations

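The array labelled vehicle replicate 2, low in CYP24A1, did not hold the same place in every gene. It lay between the high arrays and the other low arrays for the coding probe of CYP24A1 (8.24, against 3.88 and 4.46 on the other low arrays), THBD (9.84, against 7.59 and 7.33), SLC37A2 (7.0, against 5.49 and 5.39) and IGFBP1 (6.40, against 5.65 and 5.57). It held the lowest of the 6 values for SERPINB1 (10.30), DUSP10 (9.38), NINJ1 (8.90) and SPP1 (7.68). These genes were picked after their values were seen, and no explanation was tested.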
